A study of Mus musculus with 10 samples.

Results

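The 9 genes described here encode the main scaffold proteins under excitatory synapses and the major subunits of the kinase CaMKII. They are Homer1, Homer2, Homer3, Shank1, Shank2, Shank3, Dlg4, Camk2a and Camk2b. They were taken by gene name from a table of 52636 mouse genes, each name matched 1 row, and all 9 were among the 15471 genes with a mean of at least 0.5 FPKM (fragments scaled to gene length and to the size of the library) that were tested. Hippocampal RNA was sequenced from C57BL/6 mice aged 3 months, from 5 Tshr-/- and 5 wild-type biological replicates. Tshr encodes the receptor for thyrotropin, the pituitary hormone that stimulates the thyroid. The labels give no sex, do not say whether a replicate is 1 mouse, whether littermates were used, which part of Tshr was deleted or whether thyroid hormone was given. The study concerns spatial learning and memory, and the comparison here asks how the postsynaptic scaffold and CaMKII transcripts stood without the receptor.

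Excitatory synapses end on a protein-dense layer beneath the receiving membrane, the postsynaptic density. In it PSD-95, encoded by Dlg4, holds glutamate receptors, and SAPAP proteins tie PSD-95 to the Shank proteins. Homer proteins bind Shank and also metabotropic glutamate receptors and the inositol trisphosphate receptor of the endoplasmic reticulum. CaMKII is a large holoenzyme of alpha and beta subunits that calcium and calmodulin switch on, and it is required for long-term potentiation and for spatial memory in mice. Homer1 also yields a short form, Homer1a, that neuronal activity induces and that competes with the long Homer forms.

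None of the 9 genes passed the test between genotypes, and all 9 had a lower mean log2 level in Tshr-/- than in wild type. The same direction was seen for 53.3% of all genes tested. Limma, a linear model fitted across all genes tested on log2(FPKM + 0.1), called 0 of the 9 at an adjusted p below 0.05, where 0.0129% of all genes tested were called. At an unadjusted p below 0.05, 5 of the 9 were lower, namely Homer1, Shank3, Shank1, Camk2a and Camk2b, where 8.38% of all genes tested were lower at that level. The median log2 difference of the 9 was -0.28, against -0.01 over all genes tested. Limma voom on reads rebuilt from the FPKM values also called 0 of the 9, with 5 at an unadjusted p below 0.05. The count of 5 was 3 without Tshr-/- library 1, without Tshr-/- library 2, without wild-type library 1, 3 or 4, and with quantile normalization.

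Libraries held 25744854 to 28332278 rebuilt reads in the 5 Tshr-/- samples, against 23899650 to 33529811 in the 5 wild-type samples. Tshr itself was near the detection limit. It had 0 reads in Tshr-/- libraries 1, 2 and 3, which allows up to 0.0170, 0.0169 and 0.0190 FPKM at 3 reads, and 5 and 2 reads in Tshr-/- libraries 4 and 5. The wild-type libraries had 9, 12, 7, 2 and 2 Tshr reads. Intervals and limits for reads cover counting error only, and reads outside the deleted part of Tshr, which the labels do not give, check nothing. Marker genes of dentate, CA1, CA2 and CA3 neurons were above 0 in all 10 libraries. Some libraries stood apart. Markers of thalamus and habenula, 12 genes summed, came to 37.2 to 264 FPKM in Tshr-/- and 25.7 to 134 FPKM in wild type, and were highest in Tshr-/- libraries 1 and 2 and wild-type libraries 2 and 5. Choroid plexus markers reached 2252 FPKM in Tshr-/- library 4, against 3.86 to 89.2 FPKM in the other 9 libraries.

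**Figure D1:**
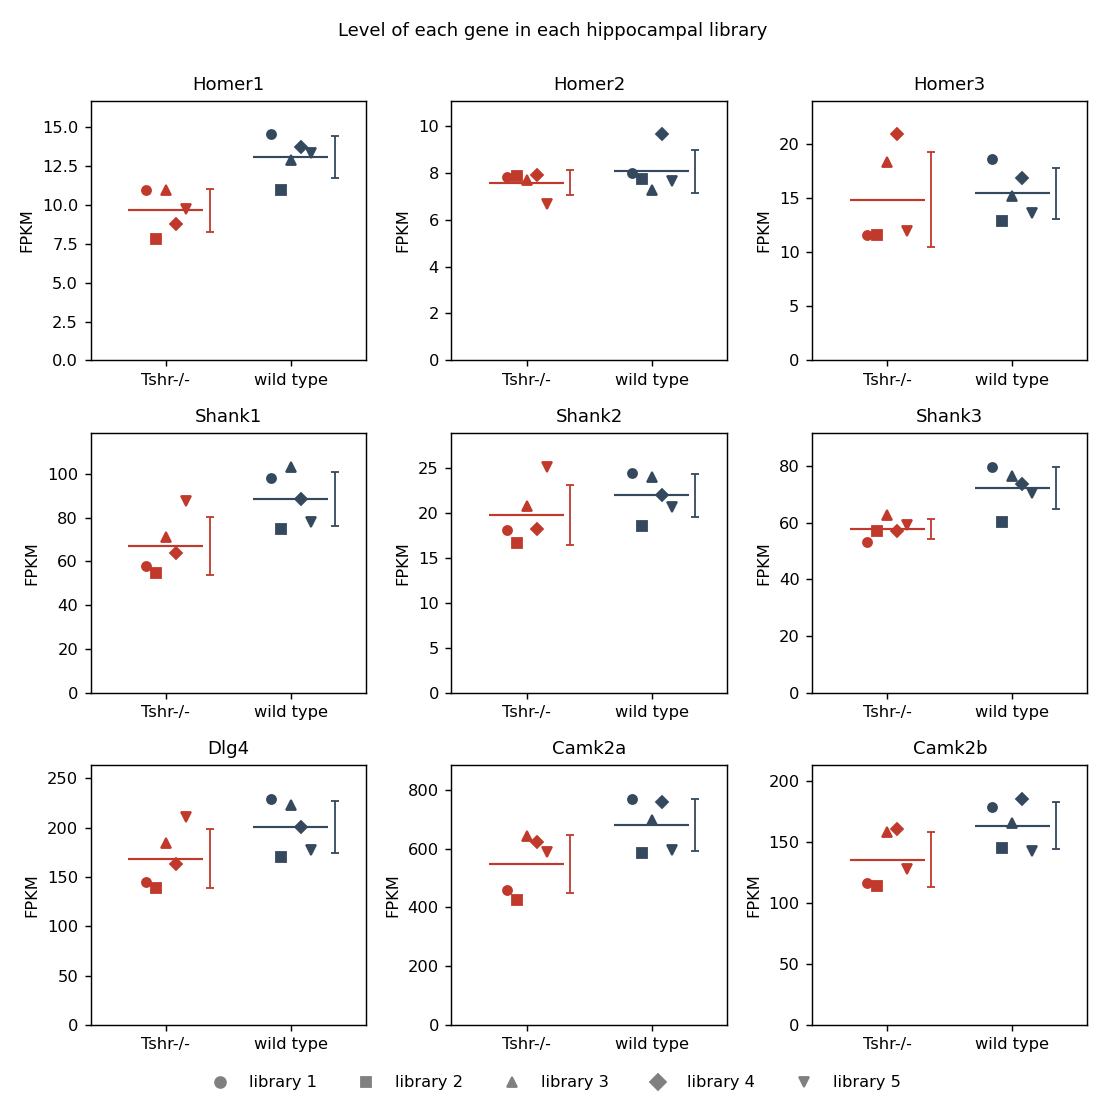
FPKM of each of the 9 genes (vertical axes, from 0) in the 5 Tshr-/- and 5 wild-type libraries, with the marker shape giving the library number, a line at the mean and a bar of 1 SD. Homer1 is the 1 gene whose groups did not overlap, with 10.963 as the highest Tshr-/- value and 10.966 as the lowest wild-type value.

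Levels per gene length spanned a wide range. In Tshr-/- the mean FPKM was 547 for Camk2a, 169 for Dlg4, 135 for Camk2b, 67.0 for Shank1, 57.9 for Shank3, 19.8 for Shank2, 14.9 for Homer3, 9.64 for Homer1 and 7.57 for Homer2. In wild type the order was the same, with 681, 200, 163, 88.6, 72.3, 22.0, 15.4, 13.1 and 8.05 FPKM. The median gene tested had a mean of 5.05 FPKM. Neighbours in that order overlapped between libraries of wild type for Dlg4 and Camk2b, Shank1 and Shank3, Shank2 and Homer3, and Homer3 and Homer1. Homer1 and Homer2 overlapped in Tshr-/-, at 7.80 to 10.96 FPKM for Homer1 and 6.64 to 7.89 FPKM for Homer2. They did not overlap in wild type, at 10.97 to 14.5 FPKM for Homer1 and 7.26 to 9.63 FPKM for Homer2. The lowest read number behind any of these values was for Homer3, with 7075 reads over the 5 Tshr-/- and 7262 over the 5 wild-type libraries.

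The Homer family is taken first, since it held both the largest and the smallest differences. For the family the RefSeq promoter windows of GRCm38.p6, the mm10 build, are shown, from 250 bases before to 50 after a start site, 5′ to 3′. They are shown because Homer1 is the activity-induced Homer gene, and CREB, a factor known to act in activity-induced transcription, binds cyclic AMP response elements. Capitals mark TGACG, the short form of that element, searched on both strands.
Homer1, chr13:93303507-93303806, plus strand: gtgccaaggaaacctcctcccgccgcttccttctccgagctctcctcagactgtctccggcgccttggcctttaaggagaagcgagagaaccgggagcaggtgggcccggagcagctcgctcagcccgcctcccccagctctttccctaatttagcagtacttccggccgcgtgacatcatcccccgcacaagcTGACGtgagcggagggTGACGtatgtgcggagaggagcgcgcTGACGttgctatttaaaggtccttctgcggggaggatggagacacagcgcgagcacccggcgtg
Homer2, chr7:81706876-81707175, minus strand: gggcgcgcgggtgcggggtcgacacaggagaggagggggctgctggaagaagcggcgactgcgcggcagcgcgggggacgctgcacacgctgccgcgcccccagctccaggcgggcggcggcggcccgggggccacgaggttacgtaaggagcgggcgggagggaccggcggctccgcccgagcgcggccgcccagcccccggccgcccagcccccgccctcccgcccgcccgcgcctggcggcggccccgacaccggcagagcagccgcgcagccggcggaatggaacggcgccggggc
Homer3, chr8:70282749-70283048, plus strand: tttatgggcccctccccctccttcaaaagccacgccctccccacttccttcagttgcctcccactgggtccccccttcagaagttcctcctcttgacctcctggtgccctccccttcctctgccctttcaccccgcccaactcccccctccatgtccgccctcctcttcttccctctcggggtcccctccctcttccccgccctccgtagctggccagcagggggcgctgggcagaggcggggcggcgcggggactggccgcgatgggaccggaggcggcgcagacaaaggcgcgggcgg
The Homer1 window held 3 short sites, and the windows of Homer2 and Homer3 held 0. Of all 32851 promoter windows of this length, 20.8% held at least 1 short site and 1.03% held at least 3. None of these 3 windows held the full site TGACGTCA, which 1.79% of all windows did. Homer1 and Homer2 each had 1 further window, at a start farther inside the gene, with 0 short sites. The Homer1 window shown has its start site at 93303757, itself inside the deposited Homer1 span that begins at 93299635. Outside the Homer family, the windows of Shank3 and Camk2b held 0 short sites. No window of Shank1, Shank2 or Camk2a was searched. For Dlg4, 1 window held 1 short site and its other windows held 0. A match of letters is a description and shows no binding.

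Homer1 (ENSMUSG00000007617, mm10 chromosome 13, 93299635 to 93405129, plus strand) encodes the Homer scaffold with the activity-induced short form. It had 10.9, 7.80, 11.0, 8.78 and 9.74 FPKM in Tshr-/- libraries 1 to 5, against 14.5, 11.0, 12.9, 13.7 and 13.3 FPKM in wild-type libraries 1 to 5. The groups did not overlap, with 10.963 FPKM in the highest Tshr-/- library against 10.966 FPKM in the lowest wild-type one. Of all genes tested, 1.76% were lower in every Tshr-/- library than in every wild-type library, and Homer1 was the 1 of the 9 genes that was. The mean was 9.64 ± 1.38 in Tshr-/- and 13.1 ± 1.33 FPKM in wild type (SD, n = 5 each). The log2 difference of -0.44 ± 0.11 (SE) had a 95% interval from -0.67 to -0.21 and did not pass (limma adjusted p = 0.175, unadjusted 0.00157). Over the 23 alternatives the adjusted p lay between 0.118 and 0.420. GENCODE vM21 lists 11 coding Homer1 transcripts on the same span, of which 3 end over 30 kb before the gene's end. The deposited values are 1 number per gene, so that short and long Homer1 forms cannot be told apart.

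Homer2 and Homer3 overlapped between genotypes. Homer2 (ENSMUSG00000025813, chromosome 7, 81600481 to 81707527, minus strand), a long Homer form of the same scaffold type, had 7.81, 7.84, 7.68, 7.89 and 6.64 FPKM in Tshr-/-, against 7.99, 7.73, 7.26, 9.63 and 7.65 FPKM in wild type. Its log2 difference was -0.08 ± 0.08 (SE), with a 95% interval from -0.26 to 0.09 (limma adjusted p = 0.687). It was -0.02 without wild-type library 4, -0.04 without Tshr-/- library 5 and -0.16 without the 4 libraries highest in thalamus and habenula markers. Homer3 (ENSMUSG00000003573, chromosome 8, 70282827 to 70294361, plus strand), the third Homer scaffold, had 11.6, 11.6, 18.4, 20.9 and 11.97 FPKM in Tshr-/-, against 18.6, 12.9, 15.2, 16.9 and 13.6 FPKM in wild type. Tshr-/- libraries 3 and 4 were high and the other 3 low, so the Tshr-/- SD of 4.43 FPKM was larger than the wild-type SD of 2.36. Its log2 difference was -0.09 ± 0.18 (SE), with a 95% interval from -0.49 to 0.31 (limma adjusted p = 0.870). With a thalamus and habenula covariate it was 0.02, so no direction is given for Homer3. The kit does not mark strand, and Homer3 overlaps Ddx49 on the opposite strand, which had 6.72 FPKM in both genotypes, so reads of the pair cannot be told apart where they overlap.

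The Shank genes encode the scaffolds that lie deepest in the postsynaptic density and link SAPAP to Homer and to the actin cytoskeleton. Shank1 and Shank3 were lower in Tshr-/- at an unadjusted p below 0.05, and Shank2 was not. Shank3 (ENSMUSG00000022623, chromosome 15, 89499623 to 89560261, plus strand), whose loss in people causes Phelan-McDermid syndrome, had 53.3, 57.0, 62.7, 57.2 and 59.3 FPKM in Tshr-/-, against 79.9, 60.4, 76.7, 73.7 and 70.6 FPKM in wild type. Wild-type library 2, at 60.4 FPKM, lay below Tshr-/- library 3, and the other 4 wild-type libraries lay above all Tshr-/- libraries. Its log2 difference was -0.31 ± 0.08 (SE), with a 95% interval from -0.48 to -0.15 (limma adjusted p = 0.176, unadjusted 0.00177). Over the 23 alternatives its adjusted p lay between 0.0958 and 0.424.

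Shank1 (ENSMUSG00000038738, chromosome 7, 44310253 to 44360572, plus strand), which in mice is needed for normal spine size, had 57.8, 54.8, 71.0, 63.8 and 87.8 FPKM in Tshr-/-, against 98.2, 74.9, 103, 88.5 and 77.8 FPKM in wild type. Tshr-/- library 5 lay above 2 wild-type libraries, and the other 4 Tshr-/- libraries lay below all of wild type. Its log2 difference was -0.41 ± 0.13 (SE), with a 95% interval from -0.71 to -0.11 (limma adjusted p = 0.258, unadjusted 0.0110). Shank2 (ENSMUSG00000037541, chromosome 7, 144001928 to 144424494, plus strand) had 18.1, 16.6, 20.8, 18.3 and 25.2 FPKM in Tshr-/-, against 24.5, 18.6, 24.0, 22.0 and 20.7 FPKM in wild type. The highest of all 10 values was Tshr-/- library 5. The log2 difference of Shank2 was -0.16 ± 0.11 (SE), with a 95% interval from -0.41 to 0.09 (limma adjusted p = 0.578). It was -0.10 without Tshr-/- library 2 or with quantile normalization, and -0.25 without Tshr-/- library 5.

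Dlg4 (ENSMUSG00000020886, chromosome 11, 70017085 to 70045532, plus strand) encodes PSD-95. It had 145, 139, 185, 164 and 211 FPKM in Tshr-/-, against 229, 170, 223, 201 and 178 FPKM in wild type. The groups overlapped, with Tshr-/- library 5 above 3 wild-type libraries. The mean was 169 ± 29.7 in Tshr-/- and 200 ± 26.5 FPKM in wild type (SD, n = 5 each), and the log2 difference of -0.26 ± 0.13 (SE) had a 95% interval from -0.54 to 0.02 (limma adjusted p = 0.419).

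Both CaMKII subunit genes were lower in Tshr-/- at an unadjusted p below 0.05 only. Camk2a (ENSMUSG00000024617, chromosome 18, 60925618 to 60988152, plus strand) encodes the alpha subunit that dominates in forebrain excitatory neurons. It had 458, 425, 643, 622 and 588 FPKM in Tshr-/-, against 771, 585, 698, 760 and 594 FPKM in wild type. Tshr-/- libraries 1 and 2 lay below all of wild type, and the other 3 lay above the lowest wild-type library. The log2 difference of -0.33 ± 0.13 (SE) had a 95% interval from -0.62 to -0.03 (limma adjusted p = 0.346, unadjusted 0.0341). With quantile normalization it was -0.17 (limma adjusted p = 0.545). Camk2b (ENSMUSG00000057897, chromosome 11, 5969644 to 6066362, minus strand) encodes the beta subunit, which tethers the holoenzyme to actin. It had 116, 114, 158, 160 and 128 FPKM in Tshr-/-, against 179, 145, 166, 185 and 142 FPKM in wild type. Libraries 1, 2 and 5 of Tshr-/- lay below all of wild type. Its log2 difference was -0.28 ± 0.12 (SE), with a 95% interval from -0.54 to -0.02 (limma adjusted p = 0.359, unadjusted 0.0393).

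**Figure D2:**
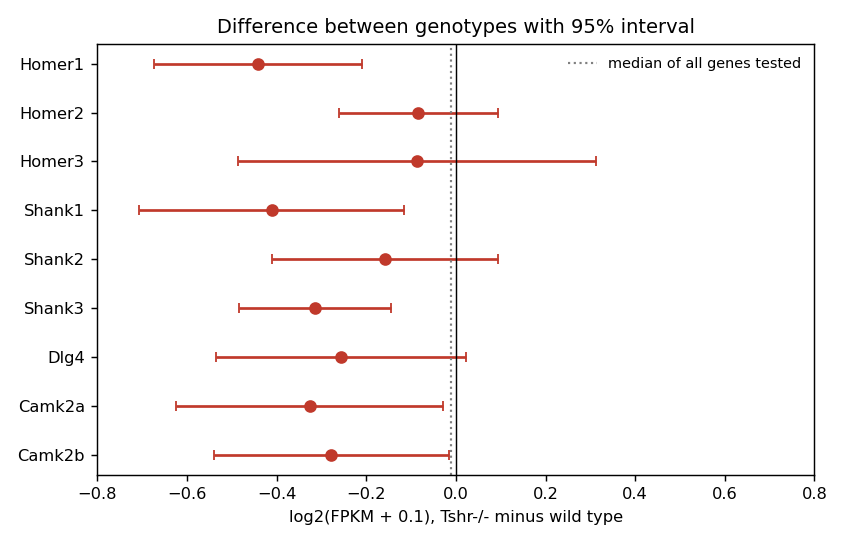
Log2(FPKM + 0.1) difference, Tshr-/- minus wild type, of each of the 9 genes with its 95% interval from limma, and the median of all genes tested as a dotted line. The intervals of Homer1, Shank1, Shank3, Camk2a and Camk2b lie below 0, those of Homer2, Homer3, Shank2 and Dlg4 reach past it, and none of the 9 passed after adjustment over all genes tested.

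Within a library the genes of a family can be set against each other, which removes the scaling of the library. Shank2 made up 14.0, 12.9, 13.5, 13.1 and 14.6% of the summed Shank FPKM in Tshr-/- libraries 1 to 5, against 12.1, 12.1, 11.8, 11.96 and 12.3% in wild-type libraries 1 to 5. Each Tshr-/- library lay above each wild-type library in this share, with means of 13.6% ± 0.682 in Tshr-/- and 12.02% ± 0.185 in wild type (SD, n = 5 each). The shares of the other Shank genes overlapped, with Shank1 at 42.7 to 51.0% in Tshr-/- and 46.0 to 50.7% in wild type, and Shank3 at 34.4 to 44.4% in Tshr-/- and 37.6 to 41.7% in wild type. Shank2 itself was not higher in Tshr-/-, with a log2 difference of -0.16, against -0.41 for Shank1 and -0.31 for Shank3. A share within the family can thus rise while the level of the gene does not. These shares were given no test, and their overlap was not set against a share of all genes.

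Homer1 made up 36.1, 28.6, 29.6, 23.4 and 34.4% of the summed Homer FPKM in Tshr-/-, against 35.3, 34.7, 36.5, 34.0 and 38.6% in wild type. The means were 30.4% ± 5.02 in Tshr-/- and 35.8% ± 1.77 in wild type, and the groups overlapped through Tshr-/- libraries 1 and 5. Homer3 made up 38.2 to 55.7% in Tshr-/- and 39.3 to 45.3% in wild type. Camk2a over Camk2b FPKM was 3.95, 3.72, 4.06, 3.87 and 4.59 in Tshr-/-, against 4.32, 4.04, 4.21, 4.10 and 4.17 in wild type. The ratio averaged 4.04 ± 0.332 in Tshr-/- and 4.17 ± 0.106 in wild type (SD, n = 5 each), a difference of -0.128 that lay within the spread between libraries. It was 0.0764 with quantile normalization, -0.0485 without Tshr-/- library 2 and -0.266 without Tshr-/- library 5, so no direction is given for the ratio.

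**Figure D3:**
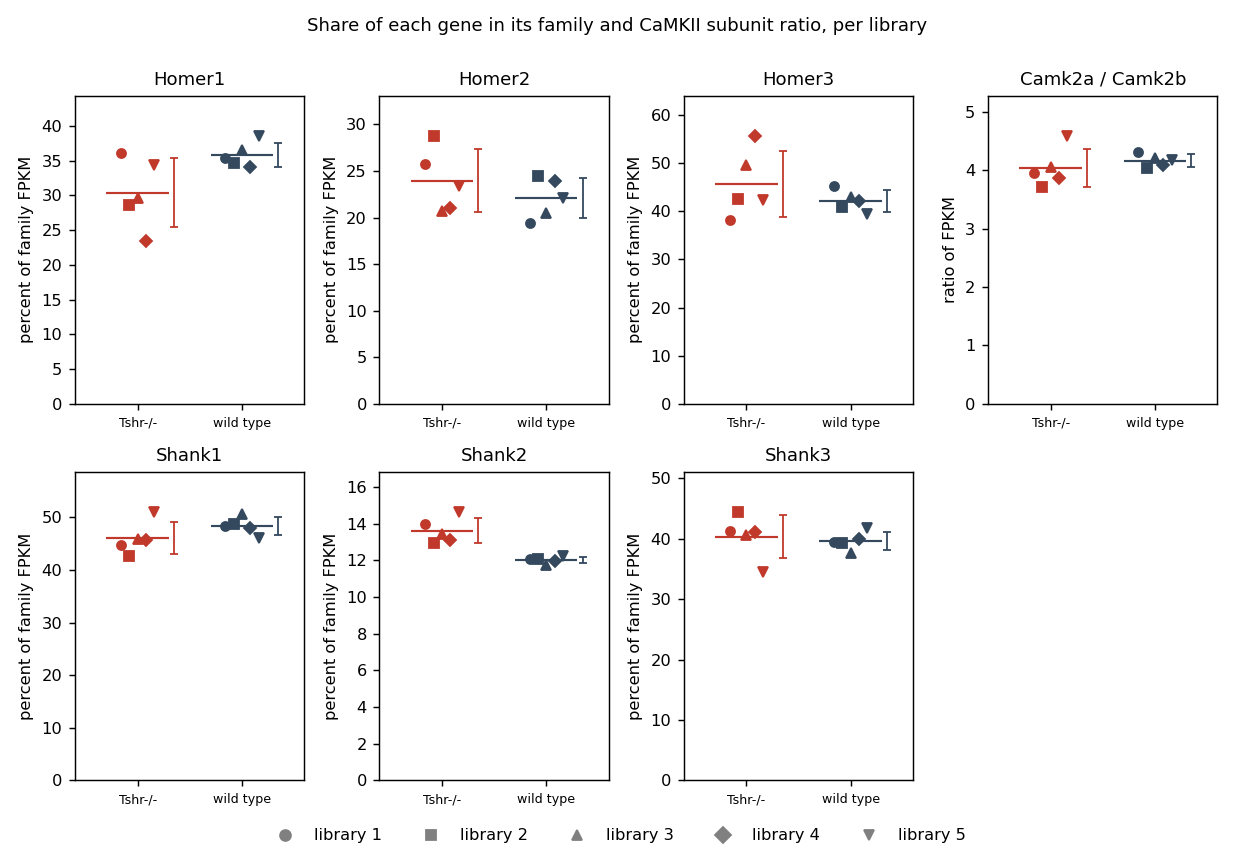
Share of each Homer and Shank gene in the summed FPKM of its family, in percent, and the ratio of Camk2a to Camk2b FPKM, for each library, with a line at the mean and a bar of 1 SD. The share of Shank2 is the 1 panel without overlap, at 12.9 to 14.6% in Tshr-/- and 11.8 to 12.3% in wild type.

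Levels of most of the 9 genes varied between libraries along with markers of neurons and of neighbouring tissue. Camk2a, Camk2b, Shank1, Shank2 and Dlg4 were each lowest of all 10 libraries in Tshr-/- library 2 and next lowest in Tshr-/- library 1. These libraries had the highest thalamus and habenula sums, 157 FPKM in Tshr-/- library 1 and 264 FPKM in Tshr-/- library 2. Of the most abundant markers in that list, Prkcd had 44.5 and 54.5 FPKM and Calb2 had 26.0 and 68.9 FPKM in Tshr-/- libraries 1 and 2. The 6 excitatory neuron markers summed to 719 to 1029 FPKM in Tshr-/- and 892 to 1181 FPKM in wild type. The 7 dentate granule neuron markers summed to 94.0 to 124 FPKM in Tshr-/- and 136 to 186 FPKM in wild type, with no overlap. Much of that gap came from C1ql2, with means of 44.4 FPKM in Tshr-/- and 77.8 FPKM in wild type. C1ql2 and Lct did not overlap between genotypes, while the other dentate markers did. Of all genes tested, 1.76% were lower in every Tshr-/- library than in every wild-type library. Log2 differences of single dentate markers ran from -0.91 to -0.05. The 6 CA1 markers summed to 87.6 to 146 FPKM in Tshr-/- and 130 to 188 FPKM in wild type. In whole tissue, fewer cells of a type and less RNA per cell cannot be told apart.

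The genotype difference was therefore also taken without the 4 libraries highest in thalamus and habenula markers, which leaves 3 libraries a group. There the log2 differences were -0.48 for Homer1, -0.36 for Shank3, -0.39 for Shank1, -0.27 for Camk2a, -0.25 for Camk2b and -0.23 for Dlg4, with limma adjusted p values from 0.314 to 0.563. With the mean of these markers as a covariate in all 10 libraries, Homer1 was at -0.40, Shank3 at -0.27 and Shank1 at -0.31. In the same fit Dlg4 was at -0.16, Camk2a at -0.21 and Shank2 at -0.08, each over 1.5 times smaller than without the covariate. Their SE fell as well, from 0.127 to 0.072 for Dlg4, 0.135 to 0.058 for Camk2a and 0.114 to 0.082 for Shank2. Limma adjusted p was then 0.374, 0.164 and 0.723, against 0.419, 0.346 and 0.578 without the covariate. With the covariate 0 of the 9 genes passed, and 5 had an unadjusted p below 0.05, as without it. The part of dentate, CA1 and other neuron content in these differences was not tested.

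**Figure D4:**
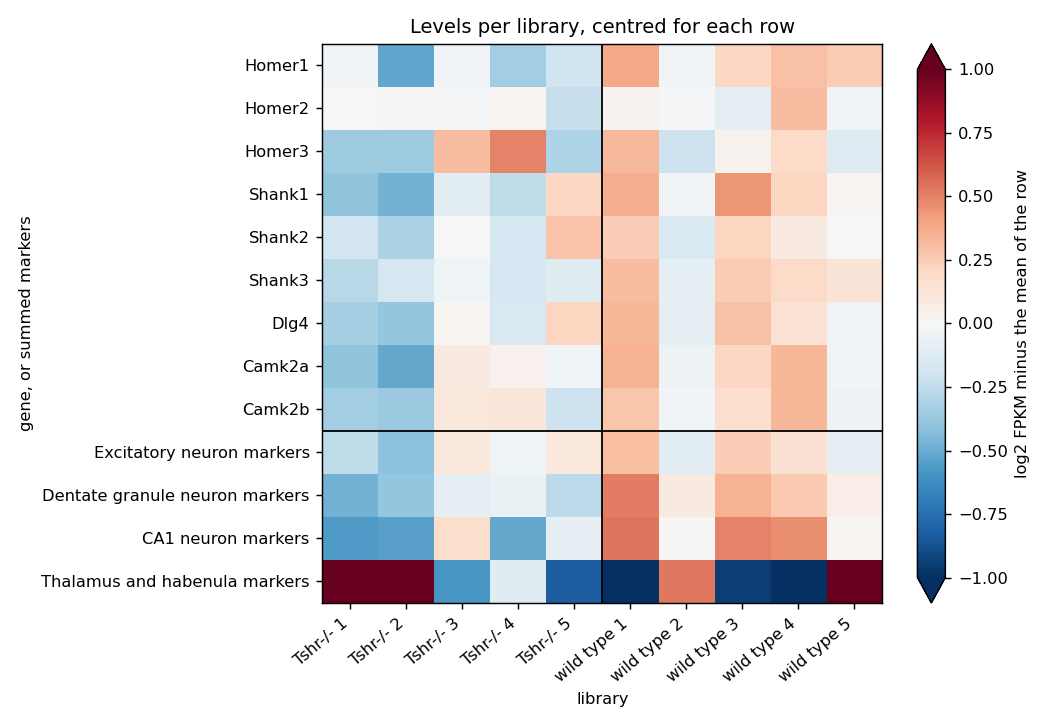
Log2 FPKM of each of the 9 genes, and of the summed markers of excitatory neurons, dentate granule neurons, CA1 neurons and of thalamus and habenula, in each library, minus the mean of the row (red high, blue low, colours end at -1 and 1). Tshr-/- libraries 1 and 2 are low for most of the 9 genes and high for the thalamus and habenula markers, summing to 157 and 264 FPKM.

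After the genotype means were removed, Shank1, Shank2 and Dlg4 moved together over the libraries. They were highest in Tshr-/- library 5 among Tshr-/- libraries. Pearson's r was 0.985 for Shank1 and Dlg4 (Spearman's rho 0.988) and 0.973 for Shank1 and Shank2 (0.976), each with exact permutation p = 0.000139 or 0.000208 for r, 0.0025 adjusted over 36 pairs. For Homer3 and Camk2b r was 0.944 (rho 0.927, exact permutation p = 0.00139, 0.0125 adjusted), and for Camk2a and Camk2b it was 0.933 (rho 0.952, exact permutation p = 0.00285, 0.0205 adjusted). Without the 2 libraries farthest from the median these 4 values of r were 0.998, 0.954, 0.913 and 0.908. For Homer3 and Camk2a r was 0.820 and did not pass (exact permutation p = 0.0205, 0.0670 adjusted), while rho was 0.903 (0.0272 adjusted). Shank3 went with Dlg4 at r = 0.753 (exact permutation p = 0.00535, 0.0321 adjusted) and rho = 0.842 (0.0272 adjusted). With Shank1 and Shank2 it passed by rho only, at 0.818 for each (exact permutation p = 0.0317 and 0.0272 adjusted). The values of r there were 0.690 and 0.705 (exact permutation p = 0.0670 adjusted for each). Homer1 went with none of the others beyond adjustment, with r from 0.0845 to 0.561 and exact permutation p of at least 0.246 after adjustment, and from -0.221 to 0.182 once the 2 farthest libraries were left out. All values of a library share its tissue piece and depth, which these correlations include.

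The genes most like each of the 9 over the 10 libraries were named by the highest Pearson's r among 15470 other genes after removing the genotype means, as a description with no test. They were Palm (0.994) and Pik3r2 (0.994) for Dlg4, Mllt6 (0.993) and Hnrnpul1 (0.991) for Shank1, and Actl6b (0.986) and Dmtn (0.985) for Shank2. For Shank3 they were Fam84a (0.971) and Shmt1 (0.951). For Camk2a they were Faah (0.991) and Ddn (0.987), for Camk2b Arhgef25 (0.990) and Wipf3 (0.985), and for Homer3 Orai2 (0.977) and Lct, of the dentate marker list (0.977). The closest for Homer1 were Sptan1 (0.930) and E130311K13Rik (0.928), and for Homer2 Mndal (0.966) and Ints2 (0.955).

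Partners of these proteins were counted in lists chosen by function, with earlier results of these data known. Beside these counts, 53.3% of all genes tested were lower in Tshr-/-, and 8.38% were lower at an unadjusted p below 0.05. Of the other Dlg genes and the SAPAP genes Dlgap1 to Dlgap4, 7 names with 8 gene records, 7 records were lower and 1 higher in Tshr-/-, 0 passed and 0 had an unadjusted p below 0.05, with a median log2 difference of -0.12. Dlgap3, a SAPAP that binds PSD-95 and Shank, had 143 ± 28.2 FPKM in Tshr-/- and 178 ± 31.3 FPKM in wild type (log2 difference -0.32). Dlg3, which encodes SAP102, stood at -0.19, Dlgap4 at -0.20 and Dlgap1 at -0.16 on the log2 scale.

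Among 10 genes for proteins that Homer or Shank bind, 9 were lower and 1 higher in Tshr-/-, 0 passed, and 3 were lower at an unadjusted p below 0.05, with a median of -0.10. Itpr1, the inositol trisphosphate receptor that Homer couples to metabotropic glutamate receptors, had 23.5, 19.4, 22.4, 18.2 and 22.3 FPKM in Tshr-/-, against 27.4, 26.8, 28.0, 28.5 and 28.3 FPKM in wild type. The Itpr1 values did not overlap between genotypes, and 1.76% of all genes tested were likewise lower in every Tshr-/- library. The Itpr1 log2 difference of -0.40 ± 0.07 (SE) had the lowest adjusted p of the partner lists without passing (limma adjusted p = 0.0842). Baiap2, which encodes the Shank-binding actin regulator IRSp53, had 57.0 ± 12.7 FPKM in Tshr-/- and 72.9 ± 11.1 FPKM in wild type. Cttn, for the actin-binding protein cortactin, had 39.8 ± 4.43 FPKM in Tshr-/- and 45.0 ± 3.28 FPKM in wild type. Sptan1, a spectrin, had 81.4 ± 2.88 FPKM in Tshr-/- and 85.6 ± 1.22 FPKM in wild type. Grm5, a metabotropic glutamate receptor that Homer binds, stood at a log2 difference of -0.09.

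Of 15 genes for further CaMKII subunits, its inhibitors, calmodulin and phosphatases, 10 were lower and 5 higher in Tshr-/-, 0 passed, and 3 were lower at an unadjusted p below 0.05, with a median of -0.04. Ppp3ca, a catalytic subunit of calcineurin, had 195 ± 28.7 FPKM in Tshr-/- and 253 ± 24.6 FPKM in wild type. Ppp1r9b, the spine protein spinophilin that anchors protein phosphatase 1, had 365 ± 43.4 FPKM in Tshr-/- and 466 ± 67.6 FPKM in wild type. Calm3, 1 of the calmodulin genes, had 1050 ± 104 FPKM in Tshr-/- and 1248 ± 95.5 FPKM in wild type. Camk2d, the delta subunit, had 3.76, 4.02, 1.46, 1.49 and 3.19 FPKM in Tshr-/-, against 1.23, 2.06, 1.29, 1.18 and 2.38 FPKM in wild type. Camk2d was highest in Tshr-/- libraries 1 and 2, which were also the highest in thalamus and habenula markers, and did not pass (limma adjusted p = 0.411).

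Of 15 other postsynaptic density genes, 14 were lower and 1 higher in Tshr-/-, 0 passed, and 3 were lower at an unadjusted p below 0.05, with a median of -0.17. Sipa1l1, the spine protein SPAR that PSD-95 binds, had 27.5 ± 4.28 FPKM in Tshr-/- and 34.7 ± 3.40 FPKM in wild type. Synpo, the synaptopodin of the spine apparatus, had 21.5 ± 4.77 FPKM in Tshr-/- and 27.4 ± 3.86 FPKM in wild type. Anks1b, for the PSD-95-binding protein AIDA-1, had 23.5 ± 1.34 FPKM in Tshr-/- and 25.5 ± 0.818 FPKM in wild type, and Iqsec1, for an Arf6 exchange factor, had 19.5 ± 1.23 FPKM in Tshr-/- and 21.2 ± 0.936 FPKM in wild type.

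Because Homer1 is also induced by activity, 13 immediate early genes, likewise chosen with earlier results of these data known, were set beside it. All 13 were lower in Tshr-/-, 0 passed, and 12 were lower at an unadjusted p below 0.05, with a median log2 difference of -0.81. Of all genes tested, 53.3% were lower, and 8.38% were lower at that level. Arc, which regulates AMPA receptor uptake, had 28.2 ± 6.44 FPKM in Tshr-/- and 63.1 ± 20.3 FPKM in wild type (limma adjusted p = 0.129). Fos had 2.99 ± 0.319 FPKM in Tshr-/- and 5.88 ± 1.69 FPKM in wild type. Fosb had 0.997 ± 0.198 FPKM in Tshr-/- and 1.96 ± 0.492 FPKM in wild type, and Npas4 had 1.79 ± 0.488 FPKM in Tshr-/- and 3.36 ± 0.664 FPKM in wild type. Fos, Fosb and Npas4 encode transcription factors induced by activity. The Homer1 difference of -0.44 was larger in size than those of Ier2 (-0.39), Btg2 (-0.21) and Dusp1 (-0.13) and smaller than those of the other 10. None of these lists or genes was tested against the others.

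**Figure D5:**
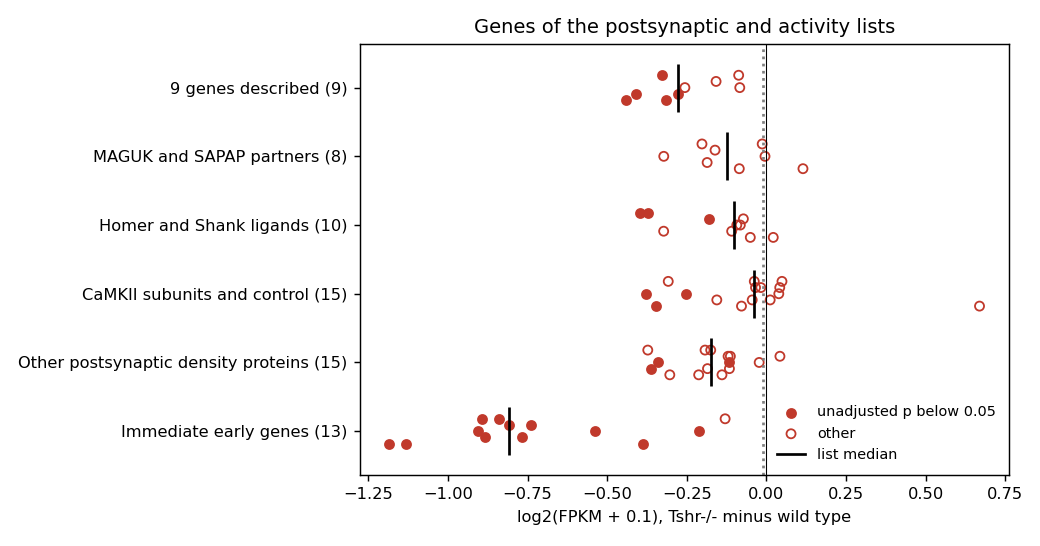
Log2(FPKM + 0.1) difference, Tshr-/- minus wild type, of each tested gene in the 9 genes described and in the 5 partner and activity lists, with filled points at an unadjusted p below 0.05, a bar at each list's median and a dotted line at the median of all genes tested. The medians lie at -0.28 for the 9 genes, from -0.17 to -0.04 for the 4 partner lists and at -0.81 for the immediate early genes.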

How the data were processed

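Libraries were made from Trizol-extracted RNA with a kit that does not mark strand, per the labels' protocols. Reads were aligned with HISAT2 2.0.5 and counted with featureCounts 1.5.0-p3 on mm10, per the submitters' processing notes. Neither the annotation release nor the library size used as divisor is given in the sources used here. The authors deposited 1 table of FPKM values, 1 column per library, with gene length and coordinates.

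From these, log2(FPKM + 0.1) of the 15471 genes with a mean of at least 0.5 FPKM was fitted in R 4.3.3 with limma 3.58.1 (2 genotypes, mean-variance trend), with Benjamini-Hochberg adjustment over all genes tested and a threshold of 0.05. Differences are Tshr-/- minus wild type and understate the change of low genes. Multiplying FPKM by gene length and dividing by the smallest unit of each library gave whole reads for 100% of values (tolerance 0.01 reads), used as rebuilt reads for limma voom with TMM factors, an alternative. Pairs of genes were correlated with exact permutation within genotype. The 9 genes were fixed by name and the partner, activity and marker lists by function, all with earlier results of these data known. Genes named are the 9, Tshr, up to 4 of each partner list with the smallest p, the 2 most similar to each of the 9 and the 2 most abundant of a marker list. Grm5, Ier2, Btg2, Dusp1, Gad1 and Iyd were named after their values were seen, as was Ddx49. The 23 alternatives are pseudocounts, filters, scaling, variance settings, gene type, replicate block, voom, a thalamus and habenula covariate, and libraries left out.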

Additional observations from a re-analysis of the deposited data

Results flagged for a closer look

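Of 54 groups of 5 values screened (the 9 genes, the family shares and ratio, and 11 summed marker lists, each in both genotypes), 2 held a value far from the other 4 by Dixon's gap over range at the 95% level. Chance flags about 1 group in 20. Homer2 had 6.64 FPKM in Tshr-/- library 5, where the nearest of the other Tshr-/- libraries had 7.68 FPKM. Summed choroid plexus markers had 2252 FPKM in Tshr-/- library 4, where the next Tshr-/- library had 57.6 FPKM. Without Tshr-/- library 5 the Homer2 log2 difference was -0.04, and it ran from -0.12 to -0.02 over the 10 ways of leaving out 1 library. Without Tshr-/- library 4 the Homer1 log2 difference was -0.41. With all libraries they were -0.08 for Homer2 and -0.44 for Homer1.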

How the results depend on the processing

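None of the 9 genes and none of the genes in the 5 partner and activity lists was called in any of the 23 alternatives. The log2 difference of 8 of the 9 genes was negative in all 23 alternatives, and that of Homer3 in 22, with 0.021 under the thalamus and habenula covariate (limma adjusted p = 0.968). Their count at an unadjusted p below 0.05 was 5, and 3 with quantile normalization, 4 with no filter on low values and from 3 to 6 when 1 library was left out. The family shares and the CaMKII ratio moved by less than the SD pooled over both genotypes under other scaling and with any 1 library left out, but some moved by more than the smaller wild-type SD or changed sign. The difference in the ratio, -0.128, was 0.0764 with quantile normalization. That in the Homer3 share, 3.58 points, was 1.08 without Tshr-/- library 4, and that in the Shank3 share, 0.742 points, was -0.26 without Tshr-/- library 2. That in the Shank2 share, 1.599 points, ran from 1.35 to 1.77. Over all genes tested, 2 were called, and the count was 14 with a pseudocount of 0.01, 4 with no filter on low values, 13 with a mean of at least 1 FPKM, 4 with quantile normalization (2 higher and 2 lower, where the deposited scaling gave 0 higher and 2 lower), 1 with no variance trend, 13 with robust empirical Bayes, 17 among protein-coding genes, 6 with limma voom (3 higher and 3 lower), 13 with the thalamus and habenula covariate and from 0 to 9 with 1 library left out. The cause was not tested. Same-numbered libraries of the 2 genotypes had correlations of their deviations from -0.0651 to 0.296. Of the 5 Tshr-/- libraries 2 correlated best with their own number, and so did 2 of the 5 wild-type libraries. These values cannot decide whether the numbers pair the samples. The SE of the Homer1 log2 difference was 0.067 with the replicate number as a block, against 0.106 without it. With the replicate number as a block, 3 genes were called in place of 2 and 0 of the 9. With 5 libraries a group, differences as large as the intervals of Homer2, Homer3, Shank2 and Dlg4 allow could not be told from 0.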

Other observations

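Other cell types of the hippocampus were set beside the 9 genes through summed marker levels. Interneuron markers, led by Sst and Slc32a1, came to 331 to 551 FPKM in Tshr-/- and 465 to 542 FPKM in wild type. CA3 and CA2 markers came to 149 to 196 FPKM in Tshr-/- and 148 to 195 FPKM in wild type. Astrocyte markers came to 333 to 373 FPKM in Tshr-/- and 344 to 385 FPKM in wild type, and oligodendrocyte markers to 570 to 1024 FPKM in Tshr-/- and 607 to 1123 FPKM in wild type. Microglia markers came to 105 to 122 FPKM in Tshr-/- and 111 to 124 FPKM in wild type, and endothelial markers to 53.6 to 76.2 FPKM in Tshr-/- and 65.4 to 84.9 FPKM in wild type. The summed levels overlapped between genotypes for each of these 6 lists, and 0 of their genes passed the test. Single markers Iyd, of the CA3 and CA2 list, and Gad1, of the interneuron list, were lower in every Tshr-/- library than in every wild-type library. Of all genes tested, 1.76% were so. The log2 differences were -1.01 for Iyd (limma adjusted p = 0.130) and -0.19 for Gad1 (limma adjusted p = 0.204). The other markers of these lists overlapped.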
